A study of Mus musculus with 15 samples.

Results

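The genes described here are the splicing factor and heterogeneous nuclear ribonucleoprotein (hnRNP) genes, taken as every gene symbol of the count tables that begins with Srsf, Sfrs, Hnrnp, Snrp, Sf3a or Sf3b and continues only in digits and lower-case letters, with at least 15 counts summed over the 15 libraries. Of 21516 gene symbols, 53 had such a name and 49 had the counts. They were 18 hnRNP genes, 12 genes with SR-protein symbols, 11 genes of small nuclear ribonucleoprotein (snRNP) proteins and 8 genes of the SF3 complex. The 4 others were Srsf3, Srsf7 and Snrpn, which were listed at 0 in every library, and Sfrs3, with 5 counts in all. Sfrs3 and Sfrs7 are older names of Srsf3 and Srsf7 that had rows of their own, and the 87 counts of Sfrs7 were all that the tables held for that gene. Of the 49 genes, 45 had enough counts to be tested, and Hnrnph2, Hnrnph3, Hnrnpul1 and Srsf13b, with 23 to 72 counts each over the 15 libraries, did not. Srsf13b (23 counts) is an older name of Srsf12 (2105 counts), so these rows carry the same gene, and the 49 are counted by symbol. Genes were taken by symbol, and 6 of the 49 rows carried the Ensembl identifier of another gene. These were Snrpd1 (that of Snrpd2), Sf3b1 (Sf3b2), Snrpb (Snrpn), Snrpe (Snrpert), Hnrnpl (Fblim1) and Hnrnph2 (Hnrnph1), and which gene such a row counted was not tested.

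The cells were mouse embryonic stem cells of the REX-1 RFP line, a reporter line whose red fluorescent protein is under the promoter of Rex1 (Zfp42), a gene of the undifferentiated state. All of them were first grown with leukaemia inhibitory factor (LIF), the cytokine that keeps mouse stem cells undifferentiated, for about 18 h to about 24% confluence, and were then held in their condition for 72 h. The NS group (normal stemness) kept LIF, the ND group (normal differentiation) had none, and 3 groups had LIF together with 200, 250 or 300 mM sorbitol, a sugar alcohol used to impose hyperosmotic stress. Each group had 3 libraries, described as biological triplicates, and the labels do not say whether the line was a single clone. RNA was read as 3' tags with the QuantSeq protocol, which gives about 1 tag per transcript, so counts show how much of a gene's RNA was present and do not show which exons it held.

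Removal of introns is carried out by the spliceosome, which is built on each intron from the small nuclear RNAs and their proteins. Most of these particles carry a ring of Sm proteins, encoded by Snrpb, Snrpd1, Snrpd2, Snrpd3, Snrpe, Snrpf and Snrpg. The SF3A and SF3B complexes are parts of the particle that recognises the branch point of the intron. SR proteins, such as those of Srsf1 and Srsf2, bind exons through RNA recognition motifs and favour the use of nearby splice sites, and hnRNP proteins bind the nascent RNA and often oppose them. Osmotic stress is a textbook setting for these proteins, since in cultured cells sorbitol moves hnRNP A1 from the nucleus to the cytoplasm through p38 kinase signalling. Many SR and hnRNP genes also control their own RNA through alternative exons that expose it to nonsense-mediated decay.

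The promoters of 43 of the 49 genes had an entry in the RefSeq promoter table (build GRCm38.p6, 250 bases before to 50 bases after the transcription start, first listed start of each gene). These are counted by symbol, so Srsf12 and its older name Srsf13b both count among the 43. Neither is among the promoters with a motif below. No promoter is described for Hnrnpul2, Sf3b4, Sf3b5, Sfrs18, Snrpb and Snrpd1. Windows from 130 bases before to 30 bases after the start are printed for 5 genes. Sf3a1 is shown because it fell at 250 and 300 mM sorbitol, Sf3b2 and Snrpc because replicate 3 was their lowest library in every group, and Srsf1 and Hnrnpa2b1 because replicate 3 was their highest library in every group. Hnrnpa3 and Snrpd3 were also lowest in every replicate 3, and Hnrnpu and Srsf10 highest, and are not printed. In their full 300 bases CCGGAAG was found 0 times. CCAAT was found 2 times each for Hnrnpa3 and Snrpd3, 0 times for Hnrnpu and 1 time for Srsf10. The printed windows therefore do not show how the motifs were spread over the low and high genes. Capitals mark the ETS-type motif CCGGAAG and the CCAAT box, on either strand.
Sf3a1, chr11:4160224-4160383, plus strand: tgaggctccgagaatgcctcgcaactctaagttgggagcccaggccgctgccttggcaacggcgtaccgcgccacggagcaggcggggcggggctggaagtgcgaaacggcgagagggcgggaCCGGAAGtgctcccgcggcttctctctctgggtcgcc
Sf3b2, chr19:5295428-5295587, minus strand: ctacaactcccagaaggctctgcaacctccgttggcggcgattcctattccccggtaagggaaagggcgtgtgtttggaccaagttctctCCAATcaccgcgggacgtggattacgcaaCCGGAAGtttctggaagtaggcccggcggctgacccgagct
Snrpc, chr17:27839957-27840116, plus strand: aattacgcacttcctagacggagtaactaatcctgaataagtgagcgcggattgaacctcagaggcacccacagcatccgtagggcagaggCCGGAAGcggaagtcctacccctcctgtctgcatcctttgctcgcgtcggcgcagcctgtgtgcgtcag
Srsf1, chr11:88047243-88047402, plus strand: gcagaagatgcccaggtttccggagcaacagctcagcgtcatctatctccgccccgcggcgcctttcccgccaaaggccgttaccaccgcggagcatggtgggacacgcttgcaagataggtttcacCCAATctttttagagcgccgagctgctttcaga
Hnrnpa2b1, chr6:51469865-51470024, minus strand: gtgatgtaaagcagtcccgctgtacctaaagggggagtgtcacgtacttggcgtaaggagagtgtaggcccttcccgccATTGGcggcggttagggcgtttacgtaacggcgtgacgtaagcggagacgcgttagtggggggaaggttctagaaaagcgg
In the full 300 bases, searched on both strands, CCGGAAG was found in 15 of the 43 promoters (34.9%), against 9.12% of the 27025 gene promoters in the table. They were those of Hnrnpd, Hnrnpf, Sf3a1, Sf3a2, Sf3a3, Sf3b2, Sf3b3, Sfrs7, Snrpb2, Snrpc, Snrpe, Snrpg, Srsf11, Srsf4 and Srsf5. CCAAT was found in 20 of 43 (46.5%) against 37.9% of all, and TATAAA in 5 of 43 (11.6%) against 14.2%. The tonicity-responsive enhancer, the binding motif of the osmotic stress factor NFAT5, was found in 2 of 43 (4.65%), those of Hnrnpc and Sfrs7, against 4.98% of all promoters. The 43 are promoters of genes with counts in these cells, whereas the 27025 were not limited to such genes. Shares among genes with counts alone were not computed. A match only describes the letters in the window.

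Libraries held 968556 to 2289528 counts, replicate 1 of each group being the deeper one, and 9390 genes were tested. Summed levels of 8 markers of undifferentiated stem cells were 1750 to 2110 CPM (a gene's counts relative to the TMM-scaled size of its library) in NS, 968 to 1690 in ND and 1860 to 2370 in the sorbitol libraries. Of 12 trophoblast markers 11 were listed, none at 0 throughout, and they summed to 65.4 to 77.6 CPM in NS, 112 to 177 in ND, 166 to 463 at 200 mM, 394 to 554 at 250 mM and 325 to 500 at 300 mM. The 9 primitive endoderm markers summed to 35.8 to 46.4 CPM in NS, 30.2 to 51.6 in ND and 71.1 to 189 with sorbitol, and the 8 feeder fibroblast markers to 3.14 to 18.8 CPM everywhere, with Col3a1, Lum and Postn at 0. The trophoblast and primitive endoderm sums were higher in every sorbitol library than in every NS library, the stem cell and feeder sums overlapped between them, and in ND the stem cell sum was lower and the trophoblast sum higher than in every NS library. The part of these cell types in the results was not tested. In bulk RNA a smaller share of cells that express a gene and less of its RNA per cell cannot be told apart. Replicate 3 also stood apart from replicates 1 and 2 in NS, ND and 200 mM sorbitol, as described with the genes that followed it.

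Summed by family, the snRNP protein genes were lower at 250 mM sorbitol than in NS. In the other 3 families the NS libraries overlapped those of each sorbitol group, and the hnRNP sum was higher in every ND library than in every NS library. The 18 hnRNP genes together gave 5691 ± 242 CPM in NS (SD, n = 3), 6193 ± 78.5 in ND, 5676 ± 477 at 200 mM, 6139 ± 268 at 250 mM and 6210 ± 449 at 300 mM. The 12 SR-protein symbols summed to 1996 ± 398 CPM in NS and 2028 to 2154 CPM as means of the other groups. The 11 snRNP protein genes gave 5706, 5571 and 4349 CPM in NS, 4947, 5867 and 4419 in ND, 4330.4, 4476 and 3699 at 200 mM, 4249.5, 3582 and 3531 at 250 mM and 4495, 3665 and 3645 at 300 mM. All 250 mM libraries lay below all NS libraries, whereas the 200 and 300 mM libraries overlapped NS. Much of this difference lay in 1 gene, Snrpd3, whose mean was 2062 CPM in NS and 1090 CPM at 250 mM, where the family means were 5209 and 3787 CPM. Snrpd3 was not called, and its NS libraries differed widely, as described below. The 8 SF3 genes gave 2963, 2368 and 1630 CPM in NS and 1666 to 1990 CPM at 250 mM, so the spread within NS was wider than the range of the treated libraries.

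**Figure D1:**
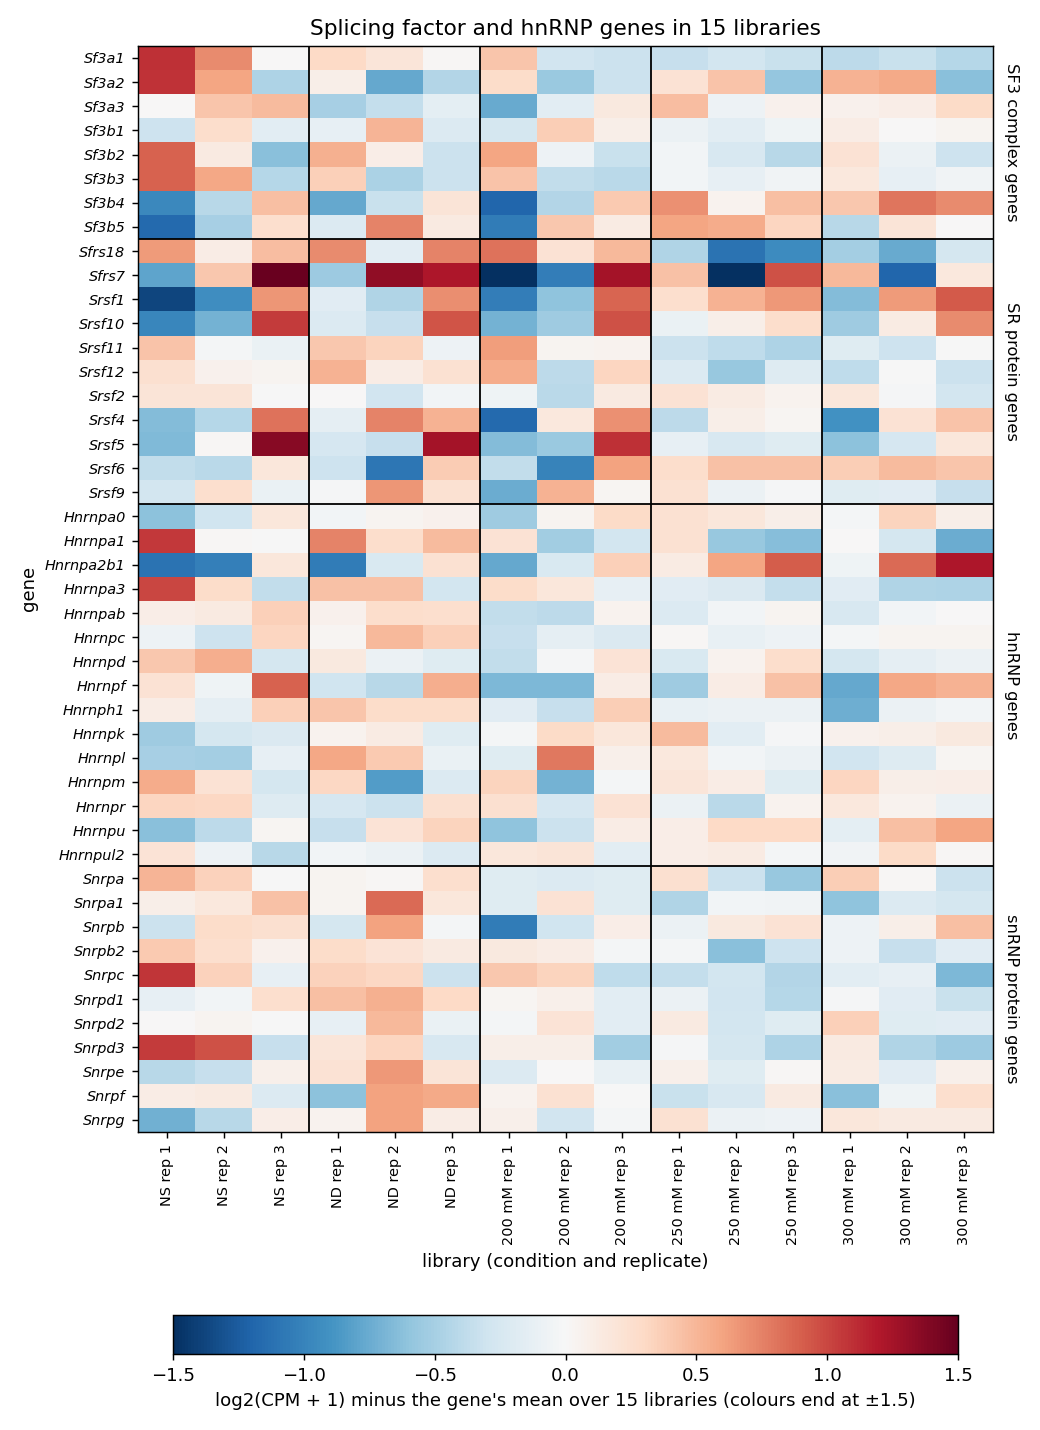
Level of the 45 tested genes in each library. Colour gives log2(CPM + 1) minus the gene's mean over the 15 libraries, rows are genes by family and columns are libraries by condition; in NS, ND and 200 mM sorbitol the column of replicate 3 differs from replicates 1 and 2 for many genes, among them Srsf1, Srsf5 and Srsf10.

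Few of the genes passed the test in any comparison, and those that did were lower in the sorbitol groups than in NS or in ND. The sorbitol groups had LIF and ND had none, so against ND the parts of sorbitol and of LIF cannot be told apart. Sf3a1 and Sfrs18 fell at 250 mM against NS, Sf3a1 fell at 300 mM, and Sfrs18 and Snrpd1 were lower in the mean of the 3 sorbitol groups than in ND. No gene of the families was called higher in any of the 6 tests, where 2.01% of all tested genes were called higher at 250 mM, 3.23% at 300 mM and 4.62% in sorbitol against ND. A call here is an adjusted p (edgeR quasi-likelihood test with no block for the replicate number, Benjamini-Hochberg over all tested genes) under 0.05, unless another fit is named. With such a block, edgeR called 4 of the 45 tested genes higher at 250 mM, 4 at 300 mM and 1 against ND. Over all 9390 genes that fit called 844, 880 and 844 higher. DESeq2 called 1 of the 45, Hnrnpa2b1, higher at 300 mM, and 455 of all genes. The 3 dose comparisons and ND share the NS libraries, so their values are set side by side and are not independent of each other.

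The counts of lower genes were read against those over all tested genes. At 250 mM the 2 genes that fell were 4.44% of 45, where 2.46% of all tested genes fell. At 300 mM the single gene was 2.22%, where 4.66% of all genes fell, and in the mean of the sorbitol groups against ND the 2 genes were 4.44%, where 5.85% of all genes were lower. With edgeR, 0 of 45 genes were called in ND against NS and 0 at 200 mM, where 0.0319% and 0.586% of all genes were called. The slope per 50 mM over the 9 sorbitol libraries called 0 of 44, against 0.101% of all genes, and DESeq2 also called 0 in each of these 3 comparisons. At an unadjusted p under 0.05 the genes past it were 5 of 45 in ND (all genes 6.39%), 5 at 200 mM (all genes 11%), 10 at 250 mM (all genes 21.9%), 11 at 300 mM (all genes 24.7%), 5 of 44 for the slope (all genes 11.5%) and 8 of 45 for sorbitol against ND (all genes 24.7%). As shares these were 11.1, 11.1, 22.2, 24.4, 11.4 and 17.8%, below the background only against ND and otherwise near it or, for ND against NS, above it. With the replicate number as a block, since same-numbered NS and 200 mM libraries deviated together, the count at 200 mM stayed at 0 of 45, and that over all genes went from 55 to 268 of 9390. At an unadjusted p under 0.05 this blocked edgeR fit had 12 of the 45 genes at 200 mM, and 1596 of all 9390. That was a larger share of the 45 than of all genes, whereas without the block the 2 shares were alike.

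Median log2 changes of the 45 genes lay below those of all genes at each sorbitol dose and against ND, and above them in ND against NS. They were 0.08 in ND against NS (all genes -0.01), -0.08 at 200 mM (0.01), -0.18 at 250 mM (-0.01) and -0.17 at 300 mM (-0.01), and -0.21 in sorbitol against ND (-0.01). The slope per 50 mM had a median of -0.01 (0.00 over all genes). Single genes ran from -0.86 to 0.69 in ND, -0.79 to 0.65 at 200 mM, -1.23 to 1.12 at 250 mM and -1.06 to 1.31 at 300 mM. At 250 mM 29 of the 45 changes were negative (64.4%, all genes 50.7%), and at 300 mM 28 (62.2%, all genes 50.9%), whereas in ND against NS 25 were positive (55.6%, all genes 49.4%). Libraries were also compared by their order alone. Every 250 mM library lay above every NS library for 5 of 45 genes (11.1%, all genes 13.9%), namely Hnrnpk, Hnrnpl, Hnrnpu, Sf3b5 and Srsf6, and below for 8 (17.8%, all genes 14.1%). At 300 mM these counts were 3 above (6.67%, all genes 13.1%), namely Hnrnpk, Snrpg and Srsf6, and 7 below (15.6%, all genes 14.7%). The share above at 300 mM was below the background, and the other shares lay nearer to it.

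**Figure D2:**
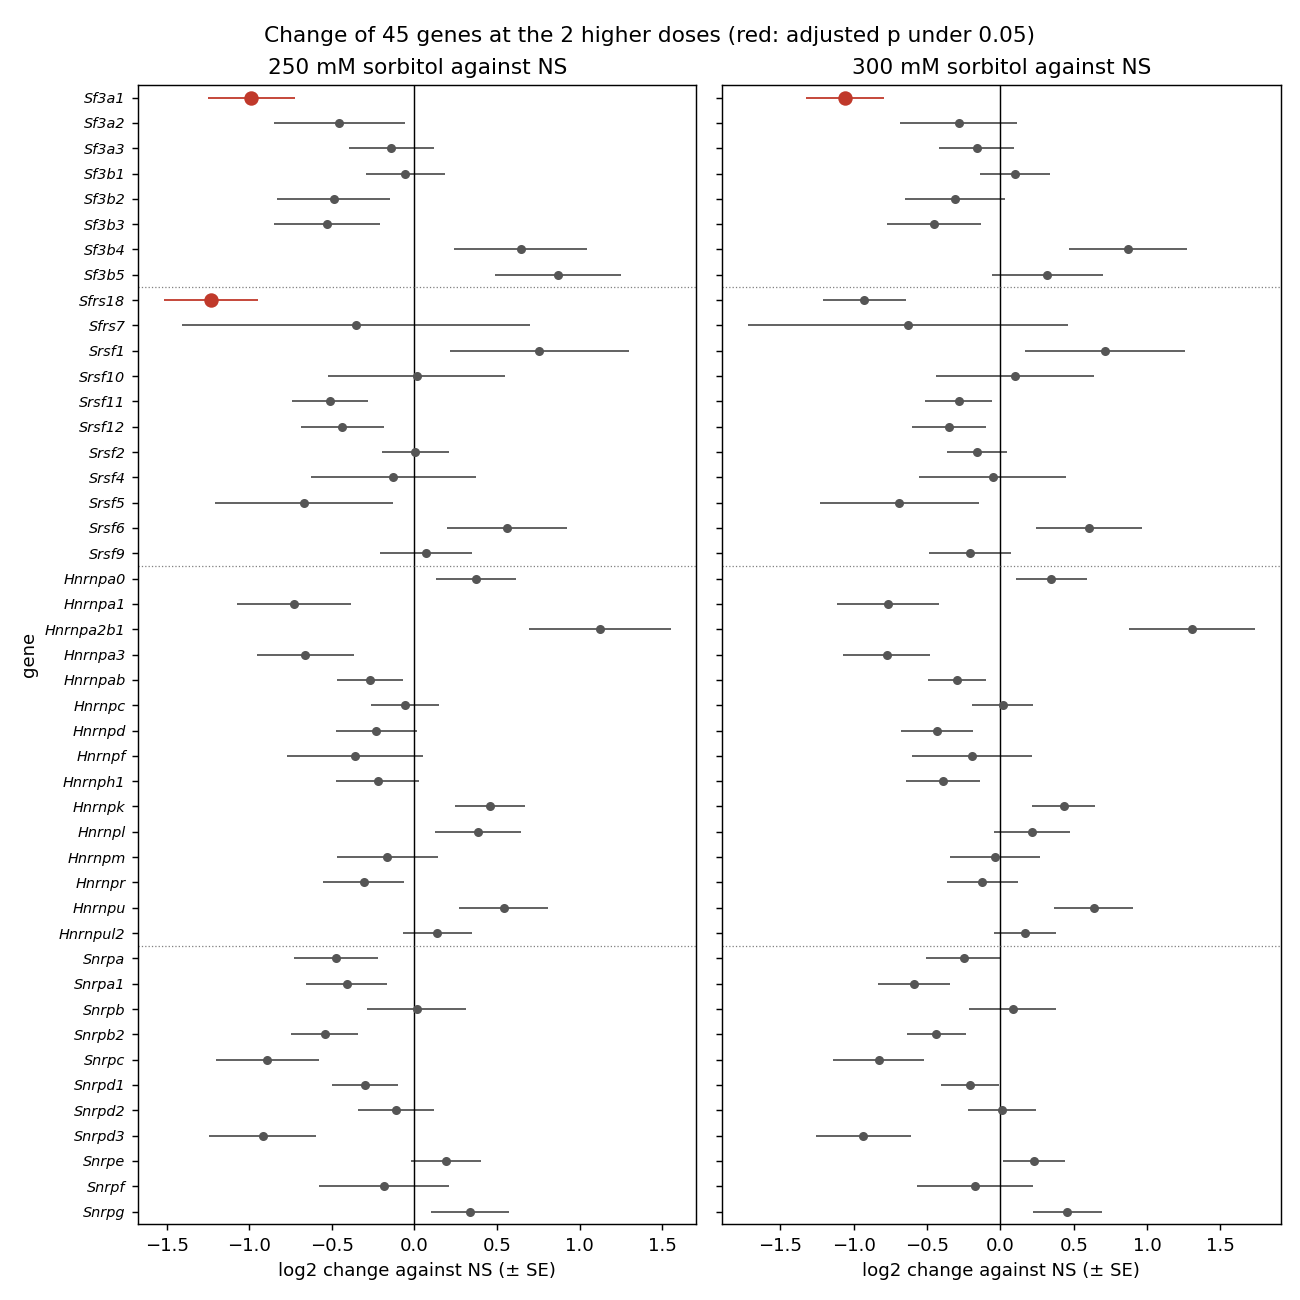
Change of each of the 45 tested genes at 250 mM (left) and 300 mM (right) against NS. Points are log2 changes with their SE as bars, by family; red marks an adjusted p under 0.05, which Sf3a1 met at both doses and Sfrs18 at 250 mM.

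Within the SF3 complex, Sf3a1 was the only gene called. It encodes the largest SF3A subunit, and it was called at 250 and 300 mM. The level of Sf3a1 was 559, 428 and 263 CPM in NS replicates 1, 2 and 3, 323, 296 and 265 CPM in ND and 349, 214 and 209.9 CPM at 200 mM. It was 206, 216 and 208 CPM at 250 mM and 199, 208 and 194 CPM at 300 mM. The treated libraries of the 2 higher doses lay within 194 to 216 CPM and below every other library except 200 mM replicates 2 and 3, while the NS libraries differed among themselves by more than any other group. Sf3a1 fell by 0.99 ± 0.26 on the log2 scale at 250 mM (adjusted p = 0.0432) and by 1.06 ± 0.26 at 300 mM (adjusted p = 0.0234). Its change was -0.69 ± 0.26 at 200 mM (adjusted p = 0.31) and -0.50 ± 0.26 in ND (adjusted p = 0.772). Within replicate numbers 1, 2 and 3 the log2 difference was -1.44, -0.99 and -0.34 at 250 mM and -1.49, -1.04 and -0.44 at 300 mM. The authors' deposited table gave log2 changes of -0.99 at 250 mM (FDR 0.0439) and -1.04 at 300 mM (FDR 0.0217) for Sf3a1.

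The call of Sf3a1 rested on NS replicates 1 and 2, its highest libraries. Without NS replicates 1 and 2 together the changes were -0.29 at 250 mM (adjusted p = 0.799) and -0.34 at 300 mM (adjusted p = 0.678). At 250 mM the call was lost on leaving out NS replicate 1 (0.217), NS replicate 2 (0.134) or any of the 3 treated libraries (0.131 to 0.137), with replicates 2 and 3 only (0.296), with the compared groups alone (0.0859) and with no filter on low counts (0.0546), and was kept without NS replicate 3 (0.00663). At 300 mM it was lost on leaving out NS replicate 1 (0.13), NS replicate 2 (0.0875) or any treated library (0.0655 to 0.0854), with replicates 2 and 3 only (0.19) and with the compared groups alone (0.0651), and was kept without NS replicate 3 (0.00364).

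The other 7 SF3 genes were not called in any test. Sf3b1, which encodes the branch point binding scaffold of SF3B and is mutated in human leukaemias, was 305, 453 and 339 CPM in NS and 409, 378 and 388 CPM at 300 mM (log2 change 0.10 ± 0.24, adjusted p = 0.843). Sf3a2 was 407, 288 and 138 CPM in NS, 204, 112 and 141 CPM in ND and 276, 286 and 123 CPM at 300 mM. Its NS libraries overlapped those of every other group, and its change in ND was -0.86 ± 0.40 (adjusted p = 0.769). Sf3a3 was 74.0, 99.1 and 104 CPM in NS and 52.1, 57.3 and 66.8 CPM in ND, where every library lay below NS (log2 change -0.65 ± 0.26, adjusted p = 0.687). The 2 genes with the highest changes of the complex encode other SF3B subunits. Sf3b4 was 25.8, 38.2 and 70.5 CPM in NS, 83.3, 53.2 and 70.5 CPM at 250 mM and 68.5, 90.1 and 84.7 CPM at 300 mM (log2 changes 0.64 ± 0.40 and 0.87 ± 0.40, adjusted p = 0.362 and 0.193). Sf3b5 was 62.1, 99.1 and 168 CPM in NS, 122, 238 and 154 CPM in ND and 214, 207 and 176 CPM at 250 mM, where it lay above NS in every library (log2 change 0.87 ± 0.38, adjusted p = 0.192).

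**Figure D3:**
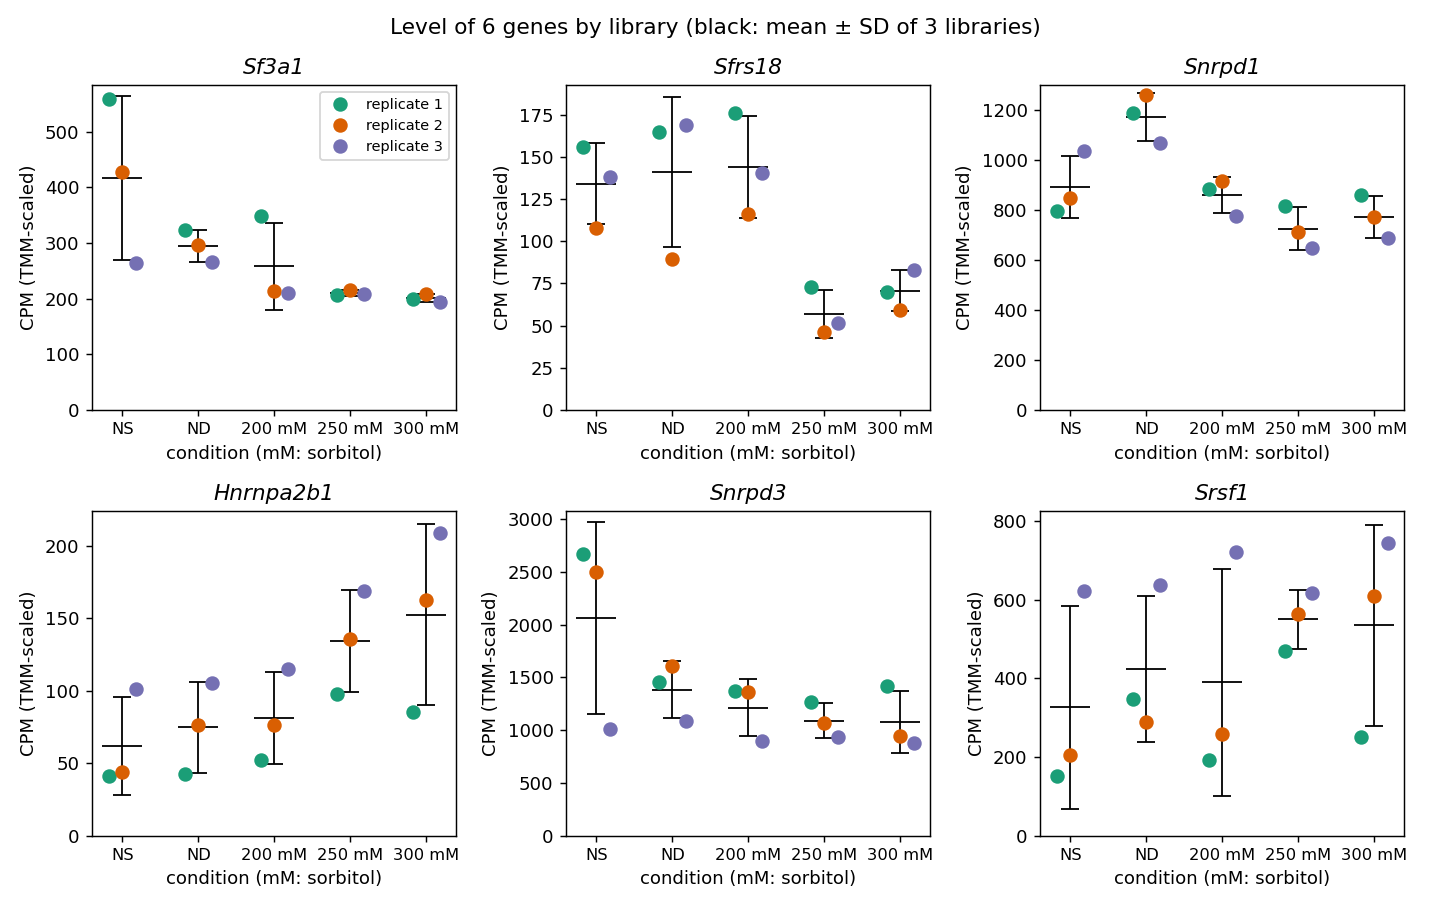
Level of 6 genes in every library. Points are CPM by condition, coloured by replicate number, and black bars give the mean and SD of the 3 libraries; Sf3a1 and Sfrs18 are lower at 250 and 300 mM than in NS, whereas in Snrpd3 and Srsf1 NS replicate 3 already lies at the level of the treated libraries.

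Among the SR-protein symbols, Sfrs18 fell at 250 mM. Sfrs18 is the older name of Pnisr, a nuclear protein with serine and arginine repeats that binds pinin, a protein of nuclear speckles. Its level was 156, 108 and 138 CPM in NS, 165, 89.5 and 169 CPM in ND and 176, 116 and 140.4 CPM at 200 mM, against 72.8, 46.0 and 51.5 CPM at 250 mM and 70.2, 59.0 and 82.9 CPM at 300 mM. Every library of the 2 higher doses lay below every library of NS, ND and 200 mM sorbitol. Sfrs18 fell by 1.23 ± 0.29 on the log2 scale at 250 mM (adjusted p = 0.0241), with within-number differences of -1.10, -1.23 and -1.43. The authors' deposited table gave a log2 change of -1.22 and an FDR of 0.0119 for Sfrs18 at 250 mM. At 300 mM its change was -0.93 ± 0.28 (adjusted p = 0.0541), which DESeq2 called (adjusted p = 0.0312), and at 200 mM 0.11 ± 0.28 (adjusted p = 0.94). The slope was -0.53 ± 0.16 per 50 mM (adjusted p = 0.23).

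Without NS replicates 1 and 2 together, the change of Sfrs18 at 250 mM was again -1.23 (adjusted p = 0.256). The call was lost on leaving out NS replicate 1 (0.103), NS replicate 2 (0.0589), or 250 mM replicate 2 (0.112) or 3 (0.0972), and with replicates 2 and 3 only (0.128). In the mean of the sorbitol groups against ND, Sfrs18 had a log2 difference of -0.76 ± 0.22 (adjusted p = 0.0346), although its 200 mM libraries overlapped ND. That call was lost without ND replicate 1 (0.171) or 3 (0.159), 200 mM replicate 3 (0.0511), 250 mM replicate 2 (0.0648) or 3 (0.0628), or 300 mM replicate 1 (0.0535) or 2 (0.0677), with replicates 2 and 3 only (0.141) and with library totals in place of TMM (0.0644).

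The classical SR protein genes were not called. Srsf1, which encodes a founding SR protein that binds purine-rich exonic enhancers, was 151, 205 and 622 CPM in NS, 347, 288 and 636 CPM in ND and 191, 257 and 720.2 CPM at 200 mM. It was 469, 563 and 618 CPM at 250 mM and 249.7, 609 and 744 CPM at 300 mM. Replicate 3 gave 618 to 744 CPM in all 5 groups, and the difference between groups lay in replicates 1 and 2, so the groups overlapped. The log2 change of Srsf1 was 0.76 ± 0.54 at 250 mM (adjusted p = 0.428) and 0.71 ± 0.54 at 300 mM (adjusted p = 0.449), and within replicate number 3 the differences were -0.01 and 0.26. Srsf2, another founding SR protein gene, was 459.6, 461 and 399.7 CPM in NS and 454, 397 and 333 CPM at 300 mM, with changes between -0.23 and 0.01 against NS in the 4 groups. Srsf6 was 151, 148 and 220.4 CPM in NS, 235, 266 and 265 CPM at 250 mM and 255, 272 and 263 CPM at 300 mM. Both doses lay above NS, although ND and 200 mM replicate 3 reached 255 and 298 CPM, and the change at 300 mM was 0.60 ± 0.36 (adjusted p = 0.323). Srsf12 was 111, 98.2 and 96.4 CPM in NS and 81.2, 62.7 and 81.6 CPM at 250 mM, without overlap (log2 change -0.44 ± 0.25, adjusted p = 0.318). Sfrs7 ranged from 0 to 10.7 CPM and carried an SE of 1.03 or more against NS, so that no change of that gene could be resolved from these counts. Why its row held so few counts was not tested.

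Of the snRNP protein genes, the Sm gene Snrpd1 was lower in the sorbitol groups, which had LIF, than in ND, which had none. Its row carried the Ensembl identifier of Snrpd2, another Sm gene with a row of its own, so which of the 2 genes the call concerns is uncertain. The row Snrpd1 was 797, 846 and 1033 CPM in NS, 1188, 1258 and 1066 CPM in ND and 883, 914 and 777 CPM at 200 mM, and 815, 711 and 647 and 858, 769 and 689 CPM at 250 and 300 mM. All 9 sorbitol libraries lay below the 3 ND libraries, and NS overlapped the sorbitol libraries. The mean of the sorbitol groups differed from ND by -0.58 ± 0.16 on the log2 scale (adjusted p = 0.0251), and by -0.48, -0.66 and -0.60 within replicate numbers 1, 2 and 3. Against NS its change was 0.39 ± 0.20 in ND (adjusted p = 0.772) and -0.21 ± 0.20 at 300 mM (adjusted p = 0.558). The call against ND was lost without ND replicate 1 (0.0857), ND replicate 2 (0.0813) or 250 mM replicate 3 (0.0509), and with replicates 2 and 3 only (0.108). Ribosomal protein genes, which are likewise abundant, were high in ND replicate 2, with a median of 0.84 against -0.12 to 0.17 in the other ND and sorbitol libraries (log2, relative to each gene's mean over the libraries). Without ND replicate 2 the log2 difference of Snrpd1 was -0.55. In NS the ribosomal protein median was -0.51, -0.43 and 0.16, and NS replicates 1 and 2, on which the call of Sf3a1 rested, were the lowest of the 15 libraries. The part of this in the changes against NS was not tested.

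In sorbitol against ND all 11 snRNP protein genes had negative differences (100%, all genes 51%), from -0.58 to -0.13. Their median was -0.31, against -0.01 over all genes, and Snrpd1 alone was called by edgeR without a block. Within replicate number 2, whose ND library had the high ribosomal protein level, all were negative. Within number 1 those of Snrpa (0.13), Snrpd2 (0.29), Snrpf (0.39) and Snrpg (0.10) were positive, and within number 3 that of Snrpb (0.29). Snrpa1, which encodes a U2 snRNP protein, was 193, 339 and 212 CPM in ND and 124, 163 and 157 CPM at 300 mM. Its difference from ND was -0.58 ± 0.19 (adjusted p = 0.0687), and DESeq2 called it. Snrpe was 358, 481 and 350.2 CPM in ND, 229.8, 241 and 323 CPM in NS and 335, 273 and 322 CPM at 300 mM. Every sorbitol library and every NS library of Snrpe lay below every ND library (sorbitol against ND -0.40 ± 0.17, adjusted p = 0.144). Snrpg was 202, 248 and 354 CPM in NS, 345, 503 and 359.7 CPM in ND and 372, 365 and 365 CPM at 300 mM, and its NS and ND libraries overlapped (log2 change in ND 0.59 ± 0.24, adjusted p = 0.687). Counts of Snrpe, Snrpg, Snrpd1, Hnrnpa1 and Hnrnpa3, which have near-identical copies or pseudogenes in the genome, are uncertain, because reads that align to several places can be split or dropped in counting.

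Snrpd3, the Sm gene with the highest level, differed most among the NS libraries. It was 2671, 2499 and 1014 CPM in NS, 1459, 1608 and 1085 CPM in ND and 1369, 1365 and 898 CPM at 200 mM, and 1266, 1069 and 936 and 1417, 942 and 882 CPM at 250 and 300 mM. NS replicate 3 lay below all ND libraries, and NS replicates 1 and 2 above all 12 other libraries. Its changes were -0.92 ± 0.32 at 250 mM (adjusted p = 0.109) and -0.93 ± 0.32 at 300 mM (adjusted p = 0.0854). Snrpc, a U1 snRNP protein gene, was 209.7, 126 and 91.0 CPM in NS and 77.0, 81.8 and 72.9 CPM at 250 mM (log2 change -0.89 ± 0.31, adjusted p = 0.105). Snrpb2, a U2 snRNP protein gene, was 759, 687 and 606 CPM in NS and 567, 374 and 466 CPM at 250 mM, without overlap (log2 change -0.54 ± 0.20, adjusted p = 0.129). Snrpb, the Sm gene whose paralogue Snrpn was listed at 0, was 149.5, 226 and 222 CPM in NS and 177, 199 and 257 CPM at 300 mM (log2 change 0.08 ± 0.30, adjusted p = 0.902).

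No hnRNP gene was called by edgeR without a block in any of the 6 tests. The highest change was that of Hnrnpa2b1, whose protein binds nascent RNA and takes part in RNA transport. It was 41.1, 43.6 and 101 CPM in NS, 42.6, 76.4 and 105 CPM in ND and 52.3, 76.4 and 115 CPM at 200 mM. It was 97.9, 136 and 169 CPM at 250 mM and 85.4, 163 and 209 CPM at 300 mM. Each treated library was above the NS library of its own number, by 0.74 to 1.64 at 250 mM and 1.05 to 1.90 at 300 mM on the log2 scale, although NS replicate 3 overlapped the treated range. The change of Hnrnpa2b1 was 1.12 ± 0.43 at 250 mM (adjusted p = 0.138) and 1.31 ± 0.43 at 300 mM (adjusted p = 0.0718). At 300 mM DESeq2 called it, and the authors' deposited table listed it with a log2 change of 1.32 and an FDR of 0.0451. With the replicate number as a block, edgeR called Hnrnpa2b1 higher at 250 mM (adjusted p = 0.00122) and 300 mM (0.000385). That fit also called it higher in sorbitol against ND (0.00927), although none of these comparisons counts as paired here. The slope over the sorbitol doses was 0.45 ± 0.18 per 50 mM (adjusted p = 0.356).

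Hnrnpa1, whose protein is the hnRNP that moves to the cytoplasm under osmotic stress in other cells, was 102, 49.1 and 48.2 CPM in NS, 81.9, 58.5 and 67.6 CPM in ND and 56.7, 33.5 and 40.0 CPM at 200 mM. It was 57.1, 32.5 and 30.9 CPM at 250 mM and 49.0, 40.4 and 28.6 CPM at 300 mM. Each sorbitol library lay below the ND library of its own number, and the difference from ND was -0.75 ± 0.27 (adjusted p = 0.0884). Against NS its change was -0.76 ± 0.35 at 300 mM (adjusted p = 0.186). Hnrnpa3 was 330.1, 199 and 128 CPM in NS and 146, 120.5 and 119 CPM at 300 mM (log2 change -0.77 ± 0.30, adjusted p = 0.116), with NS replicate 3 inside the treated range. Hnrnpk, which encodes a KH-domain protein, was 877, 1059 and 1093 CPM in NS and 1331, 1350.5 and 1405 CPM at 300 mM. It lay above NS in every library of all 4 other groups, with log2 changes of 0.33 in ND and 0.48, 0.46 and 0.43 at the 3 doses (adjusted p = 0.814, 0.419, 0.219 and 0.222). Hnrnpu, a scaffold protein gene of chromatin and RNA, was 489.7, 575 and 774 CPM in NS and 681, 1038 and 1139 CPM at 300 mM (log2 change 0.64 ± 0.27, adjusted p = 0.154). Hnrnpl was 189, 187 and 245 CPM in NS and 400.4, 352 and 249.9 CPM in ND, without overlap, and had the largest positive change of the 45 genes there (0.69 ± 0.26, adjusted p = 0.62). Hnrnpf was 37.7, 30.9 and 60.7 CPM in NS and 19.9, 19.9 and 35.1 CPM at 200 mM (log2 change -0.79 ± 0.42, adjusted p = 0.528).

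Replicate 3 differed from replicates 1 and 2 for many of these genes in the same direction in several groups. It lay above both in each of NS, ND and 200 mM sorbitol for 10 of the 45 genes (22.2%, all genes 15%), which were Hnrnpa0, Hnrnpa2b1, Hnrnpf, Hnrnpu, Sf3a3, Sf3b4, Srsf1, Srsf10, Srsf5 and Srsf6. It lay below both for 7 (15.6%, all genes 15.3%), which were Hnrnpa3, Hnrnpul2, Sf3a1, Sf3b2, Snrpb2, Snrpc and Snrpd3. Over all 5 groups the counts were 4 above (8.89%, all genes 4.13%) and 4 below (8.89%, all genes 4.25%). The sizes were large in NS. Srsf10, whose protein represses splicing after heat shock, was 43.0, 51.8 and 178 CPM in NS, and replicate 3 was 3.77 times the mean of the others, against 1.21 times at 250 mM. For Srsf5 the NS libraries gave 54.5, 87.2 and 224 CPM and those at 250 mM 79.1, 73.0 and 76.0 CPM. Sf3b2 ran the other way, with 1290.3, 767 and 451 CPM in NS, where replicate 3 was 0.439 times the mean of the others, and 0.822 times at 250 mM.

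The same libraries differed in base composition. The GC tilt, the median level of the GC-richest 20% of tested genes minus that of the GC-poorest 20% (log2, each gene relative to its mean over the libraries, GC of the last 300 bases of the transcript), was 0.42, 0.17 and -0.45 in NS, 0.06, -0.03 and -0.35 in ND and 0.36, 0.12 and -0.39 at 200 mM. At 250 mM it was 0.07, 0.04 and -0.11 and at 300 mM 0.29, 0.06 and -0.23, so that replicate 3 was the lowest in every group and the libraries at 250 mM were the most alike. The 10 genes high in replicate 3 had a median GC of 34.8% and the 7 low ones 37.8%, against 39% over the 45 genes and 45% over 9204 genes. The part of base composition in the differences between groups was not tested.

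**Figure D4:**
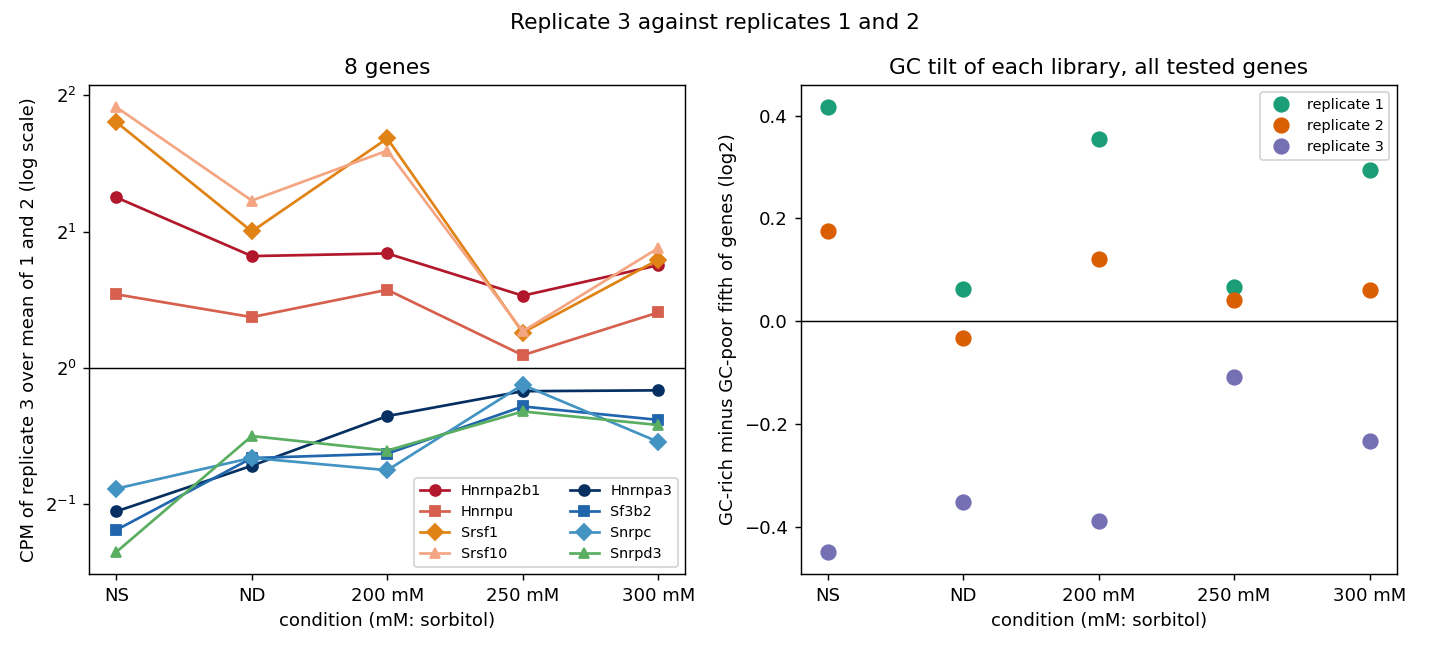
Replicate 3 against replicates 1 and 2. Left, the CPM of replicate 3 over the mean of replicates 1 and 2 (log axis) by condition for the 8 genes in which replicate 3 was the highest or the lowest library in all 5 groups, from 3.77 for Srsf10 to 0.392 for Snrpd3 in NS; right, the GC tilt of each library over all tested genes, lowest in replicate 3 of every condition.

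How many genes were called depended on single libraries. Without NS replicate 3, 8 of the 45 genes were called at 250 mM in place of 2, and 7 at 300 mM in place of 1. At 250 mM these were Hnrnpa2b1, Hnrnpa3, Sf3a1, Sf3b5, Sfrs18, Snrpc, Snrpd3 and Srsf1, with 3 higher and 5 lower, and at 300 mM Hnrnpa2b1, Hnrnpa3, Sf3a1, Sf3b4, Snrpc, Snrpd3 and Srsf1. Over all genes the count without NS replicate 3 went from 420 of 9390 to 1413 of 9711 at 250 mM. At 300 mM it went from 741 of 9390 to 1500 of 9711, so the rise was not particular to the 45 genes. Without NS replicate 1, or without NS replicate 2, 0 of the 45 were called at either dose. Leaving out replicate 2 or replicate 3 of the treated group also left 0 of the 45 called at its dose. Calls over all genes were also fewer in these fits. Without NS replicate 1 they were 84 at 250 mM and 291 at 300 mM of 9698 genes. Without NS replicate 2 they were 87 and 250 of 9705.

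A further 151 genes of splicing and its control were listed by function, of which 145 were in the tables and 137 were tested. Several of them differed more between sorbitol and ND than any of the 45 genes above. Esrp1, the epithelial splicing regulator gene, had 18.2, 16.4 and 26.8 CPM in NS, 45.9, 50.1 and 73.2 CPM in ND and 10.3, 6.74 and 2.76 CPM at 300 mM. Every ND library of Esrp1 lay above every other library, and the log2 difference of the sorbitol groups from ND was -2.78 ± 0.29 (adjusted p = 2.61e-05). Mbnl3, a muscleblind RNA-binding protein gene, had 7.16 to 20.4 CPM in the NS and ND libraries and 121, 56.4 and 49.9 CPM at 250 mM. All 9 sorbitol libraries of Mbnl3 lay above all NS and ND libraries, with a log2 difference from ND of 2.29 ± 0.49 (adjusted p = 0.00697). Fubp1, which encodes a single-stranded nucleic acid binding protein, had 483, 515 and 370.3 CPM in NS, 466, 547 and 394 CPM in ND and 209, 202 and 193 CPM at 250 mM. It fell by 1.18 ± 0.21 on the log2 scale at 250 mM against NS (adjusted p = 0.00668) and differed from ND by -1.01 ± 0.16 (adjusted p = 0.000878). The calls of these 3 genes against ND held under every alternative run. The call of Fubp1 at 250 mM held on leaving out any single library and was lost with replicates 2 and 3 only (0.112) and without NS replicates 1 and 2 together (0.294). At 300 mM Fubp1 fell by 1.03 ± 0.21 (adjusted p = 0.00896), lost without NS replicate 2 (0.054), without 300 mM replicate 3 (0.0537), with replicates 2 and 3 only (0.0824) and without NS replicates 1 and 2 together (0.318).

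Srpk2, a kinase gene of SR proteins whose row carried the Ensembl identifier of Srpk3, had 186, 202 and 178 CPM in ND and 85.4, 85.9 and 98.6 CPM at 300 mM. Its difference from ND was -0.90 ± 0.17 (adjusted p = 0.00325), lost only with replicates 2 and 3 (0.0527). Matr3, a nuclear matrix RNA-binding protein gene, differed from ND by -0.77 ± 0.18 (adjusted p = 0.0113), lost without ND replicate 2 (0.0789) and with replicates 2 and 3 only (0.0743). Ptbp2, the neural polypyrimidine tract binding protein gene, differed from ND by -1.36 ± 0.34 (adjusted p = 0.0161), lost without ND replicate 3 (0.165) and with replicates 2 and 3 only (0.137). Snrnp27 and Snrnp48, of 57 tested genes of the other core spliceosome, differed from ND by -0.66 ± 0.19 (adjusted p = 0.0309) and -0.67 ± 0.20 (adjusted p = 0.041). Both were lost with library totals (0.0555 and 0.0699), with replicates 2 and 3 only (0.0875 and 0.126), without ND replicate 2 (0.164 and 0.252), without 200 mM replicate 3, 250 mM replicate 1 or 2, or 300 mM replicate 2 or 3 (0.0503 to 0.0741), and Snrnp27 also without ND replicate 3 (0.0757) and Snrnp48 with no filter on low counts (0.0526), with the compared groups alone (0.0598) and without ND replicate 1 (0.0676), 200 mM replicate 2 (0.0511) or 300 mM replicate 1 (0.0664).

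The numbers called among these genes were small. Of the 137, 1 rose and 2 fell (1.46%) at 250 mM and 1 rose and 5 fell (3.65%) at 300 mM, and 1 was higher and 7 were lower (5.11%) in sorbitol than in ND. The single higher gene was 0.73% in each case, where the shares of all genes called higher and lower are those given above, and 4.47, 7.89 and 10.5% of all genes were called in either direction. With edgeR, 0 were called in ND against NS and at 200 mM, and 0 of 135 for the slope, with 2, 14 and 16 at an unadjusted p under 0.05. The 2 genes in ND were 1.46% of the 137, below the 6.39% of all genes. At 300 mM those called in either direction, where 7.89% of all genes were, were 5 of 46 other splicing regulators, 1 of 11 genes of SR protein kinases and import, 0 of 12 of snRNP assembly, 1 of 12 of the exon junction and nonsense-mediated decay (Rbm8a, which is also in the first list) and 0 of 57 other core spliceosome genes. Besides those of Fubp1, the calls against NS were those of Mbnl3 and Rbm8a at both doses and of Esrp1, Ptbp2 and Srpk2 at 300 mM. Each was lost on leaving out any of several single libraries. At 250 mM Mbnl3 rose by 2.39 ± 0.54 (adjusted p = 0.0223), lost without NS replicate 1 (0.0617), NS replicate 2 (0.1), or 250 mM replicate 1 (0.116) or 2 (0.0503). Rbm8a, the gene of an exon junction core protein, had 3586, 2208 and 1213 CPM in NS and 1066, 789.9 and 889 CPM at 250 mM. It fell by 1.35 ± 0.33 (adjusted p = 0.0296), lost without NS replicate 1 (0.176) or 2 (0.0855) or any treated library (0.0775 to 0.129), and its change was -0.37 without NS replicates 1 and 2 together. At 300 mM Esrp1 fell by 1.53 ± 0.43 (adjusted p = 0.039), lost without any of the 3 NS libraries (0.0614 to 0.0795) or without 300 mM replicate 2 (0.127) or 3 (0.137). Srpk2 and Ptbp2 fell there by 0.79 ± 0.22 (adjusted p = 0.039) and 1.62 ± 0.46 (adjusted p = 0.0401). Srpk2 was lost without NS replicate 1 (0.139) or 2 (0.129) or any treated library (0.0832 to 0.142), and Ptbp2 without any single NS or treated library (0.0522 to 0.128).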

How the data were processed

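Base calling used CASAVA 1.8.2, alignment STAR, counting HTSeq on build mm9, and the authors' tests edgeR, per the submitters' processing notes; the other versions, the annotation, the strand setting and the handling of multiple alignments are not given there. Whole-number counts per symbol were deposited in 4 tables, each holding the 3 NS libraries, whose values were identical in all, beside another group. The deposited signal columns were group means and SDs of raw counts and were not used. The authors gave log2 columns with changes against NS and with mean CPM, and the deposited score columns the signed fold change and the likelihood ratio. The deposited p-value and FDR columns were used only to cite the authors' calls. An empty column headed Error was ignored, and 0 columns were left without a sample.

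Tables were joined by symbol, since 9 of the 49 genes carried an Ensembl identifier whose current symbol is another one, 3 of them older names of the same gene (Sfrs18, Sfrs7 and Srsf13b) and 6 rows with the identifier of another gene. Counts were tested with edgeR 4.0.16 (glmQLFit and glmQLFTest, TMM factors, filterByExpr with minimum count 10 and minimum total 15, R 4.3.3) in 1 fit of all 15 libraries with group as the only term, and Benjamini-Hochberg adjustment over 9390 genes at 0.05. The slope per 50 mM used the 9 sorbitol libraries and 8928 genes. SEs were derived from the F statistic (absolute log2 change over root F). CPM was computed with TMM factors, and 3 counts amounted to 1.31 to 3.10 CPM. The p-values measure the spread between biological triplicates, whose libraries differed by more than sampling noise (chi-square per degree of freedom 2.45 to 29.3). GC content came from the last 300 bases of GENCODE M21 protein-coding transcripts, which 98% of tested genes had. Promoters are of GRCm38.p6, not of the authors' build, and no coordinates of the files were used. The fits were tested on simulated data.

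The groups share replicate numbers. Deviations from the group means correlated above 0.1 in 24 of 30 same-numbered pairs, and in all 3 pairs for 4 of 10 pairs of groups, among them NS with 200 mM sorbitol (0.68, 0.12 and 0.62), the only comparison made here that counts as paired. The rule asked for all 3 correlations above 0.1. For NS they were 0.28, -0.08 and 0.19 with 250 mM and 0.58, -0.15 and 0.46 with 300 mM, so number 2 failed it. ND passed with 200 mM but not with 250 or 300 mM.

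The genes and lists were chosen with earlier results of these data known. The text names 13 genes always (Srsf1, Srsf2, Srsf3, Srsf7, Hnrnpa1, Hnrnpa2b1, Hnrnpk, Hnrnpu, Snrpn, Snrpb, Snrpd1, Sf3b1, Sf3a1), genes past the threshold, and the 3 highest and 3 lowest changes of each test that reach 20 CPM in 1 of the groups compared; others were named after their values were seen. Alternatives were DESeq2 1.42.0, RLE factors, library totals, no filter, the block, the compared groups alone, replicates 2 and 3 alone, NS replicates 1 and 2 left out, and each library left out. Figures used Python 3.11.15 and matplotlib 3.10.9.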

Additional observations from a re-analysis of the deposited data

How the results depend on the processing

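For the 22 named and tested genes, 1980 values were recomputed under the 23 alternatives. Of these 1915 kept their direction and side of the threshold or had neither fit past it, 36 lost the call, 29 gained one and 0 reversed, while 121 changed sign with neither fit past the threshold. The cause of these moves was not tested, except that fits with fewer libraries have less information by construction.

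Counts of all genes called moved as follows. In ND against NS (3) they were 1 with RLE factors, 33 with DESeq2, and 0 with the compared groups alone, with replicates 2 and 3 only and without NS replicates 1 and 2, and 0 to 74 on leaving out single libraries. At 200 mM (55) they were 161 with DESeq2, 1 with the compared groups alone, 4 with replicates 2 and 3 only, 4 without NS replicates 1 and 2, and 12 to 150. At 250 mM (420) they were 742 with DESeq2, 28 with replicates 2 and 3 only, 10 without NS replicates 1 and 2, and 84 to 1413. At 300 mM (741) they were 462 with the compared groups alone, 116 with replicates 2 and 3 only, 32 without NS replicates 1 and 2, and 210 to 1500. For the slope (9) they were 0 with library totals, 75 with DESeq2, 27 with replicates 2 and 3 only, and 0 to 41. In sorbitol against ND (983) they were 404 with replicates 2 and 3 only, and 537 to 1120.

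Of the 45 splicing factor and hnRNP genes, 0 were called in ND against NS, at 200 mM and for the slope under every alternative run. At 250 mM (2) the count was 1 with no filter, 1 with the compared groups alone, 0 with replicates 2 and 3 only, 0 without NS replicates 1 and 2, and 0 to 8 on leaving out single libraries. At 300 mM (1) it was 3 with DESeq2, 0 with the compared groups alone, with replicates 2 and 3 only and without NS replicates 1 and 2, and 0 to 7. In sorbitol against ND (2) it was 1 with library totals, 0 with replicates 2 and 3 only, and 0 to 2. With library totals the median change of all genes shifted to 0.08 at 250 mM and 0.07 in sorbitol against ND, and that of the 45 genes to -0.09 and -0.13.

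The replicate block gave 40, 268, 1683, 1869, 111 and 1830 genes called in ND, at 200, 250 and 300 mM, for the slope and in sorbitol against ND, and among the 45 genes 0, 0, 10, 11, 0 and 5. At 250 mM 4 of the 10 were higher (Hnrnpa2b1, Hnrnpu, Sf3b5 and Srsf1) and at 300 mM 4 of the 11 (Hnrnpa2b1, Hnrnpu, Sf3b4 and Srsf1). In sorbitol against ND 1 of the 5 was higher (Hnrnpa2b1), and Sf3a1, Sfrs18 and Snrpd1 kept their calls. Every library correlated best with its own number in 3 of the 10 pairs of groups, which is a hint from the data and not from the design, and none of these 3 pairs holds NS.

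Of the 49 genes 4 had too few counts to test, and Sfrs7 had SEs of 1.03 to 1.11 against NS; the parts of depth and of the annotation in these low counts were not tested.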
